A study of Bos taurus with 12 samples.

Results

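DNA methylation writers, readers and erasers are the enzymes and adaptors that place, copy and remove methyl groups on cytosine. The set described here was DNMT1, DNMT3A, DNMT3B, UHRF1, UHRF2, TET1, TET2 and TET3, and every array probe whose annotated gene symbol was one of these 8 was taken. The annotation gave 12 probes for 7 of the 8 genes, out of 43793 probes tested and 15216 named genes. DNMT3A and TET2 had 3 probes each, DNMT1 had 2, and DNMT3B, UHRF1, UHRF2 and TET3 had 1 each. TET1 was listed for no probe and was not analysed here.

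The material was single blastomeres of bovine 2-cell embryos. Each embryo was split, one cell was cultured alone and its sister was frozen, and the frozen cells were sorted at day 7 by what the cultured sister had become. BL denotes cells whose sister reached the blastocyst stage, 2CB denotes cells whose sister did not divide again, and 8CB is the name the labels give to cells whose sister stopped after further cleavage. The labels describe that last arrest at an earlier stage than the name says, so only the name 8CB is used. All embryos were developed in vitro, no treatment beyond culture of the sister is named in the labels, each class was sampled as 3 separately made pools, with 15 blastomeres in a pool, and the RNA was amplified before labelling. BL was hybridised against 2CB on 6 two-colour arrays and against 8CB on 6 more, with BL in the dye Cy5 on 3 arrays of each comparison and in Cy3 on the other 3. In such pools less RNA of a gene per cell cannot be told apart from fewer cells that hold it.

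In mammals DNMT1, recruited by UHRF1 to newly replicated DNA, copies methylation onto the new strand, while DNMT3A and DNMT3B methylate sites that carried no mark. TET enzymes oxidise 5-methylcytosine, which starts its removal. A fertilised egg loses much of its inherited methylation over the first cleavages while imprinted regions keep theirs, and it does so largely on RNA and protein stored in the oocyte. In mouse, TET3 is the TET enzyme of the zygote, and it acts foremost on the paternal genome.

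The values were log2 ratios of the 2 dyes, so they show differences between classes and no level of any gene. Each ratio is called positive or negative as it was deposited, because the labels do not settle which class is the numerator. Swapped arrays with the same number deviated together from their group means in 5 of 6 pairs (median r = 0.38 over all probes; r = -0.22 in replicate 3 of BL against 8CB). The swapped arrays were therefore averaged as deposited, which left 3 averaged ratios per comparison. A second reading, called turned, is given beside it. It follows the dyes on the labels, so that a positive value means higher in BL, and holds only if the deposited values are still Cy5 over Cy3. Array medians lay between -0.0035 and 0.0096 and array SDs between 0.26 and 0.38. Cell identity could not be checked from levels, since a ratio shows none. The number of arrays limits the precision, and the p-values measure only the spread between these pools, whose culture or oocyte batches the labels do not give.

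**Figure D1:**
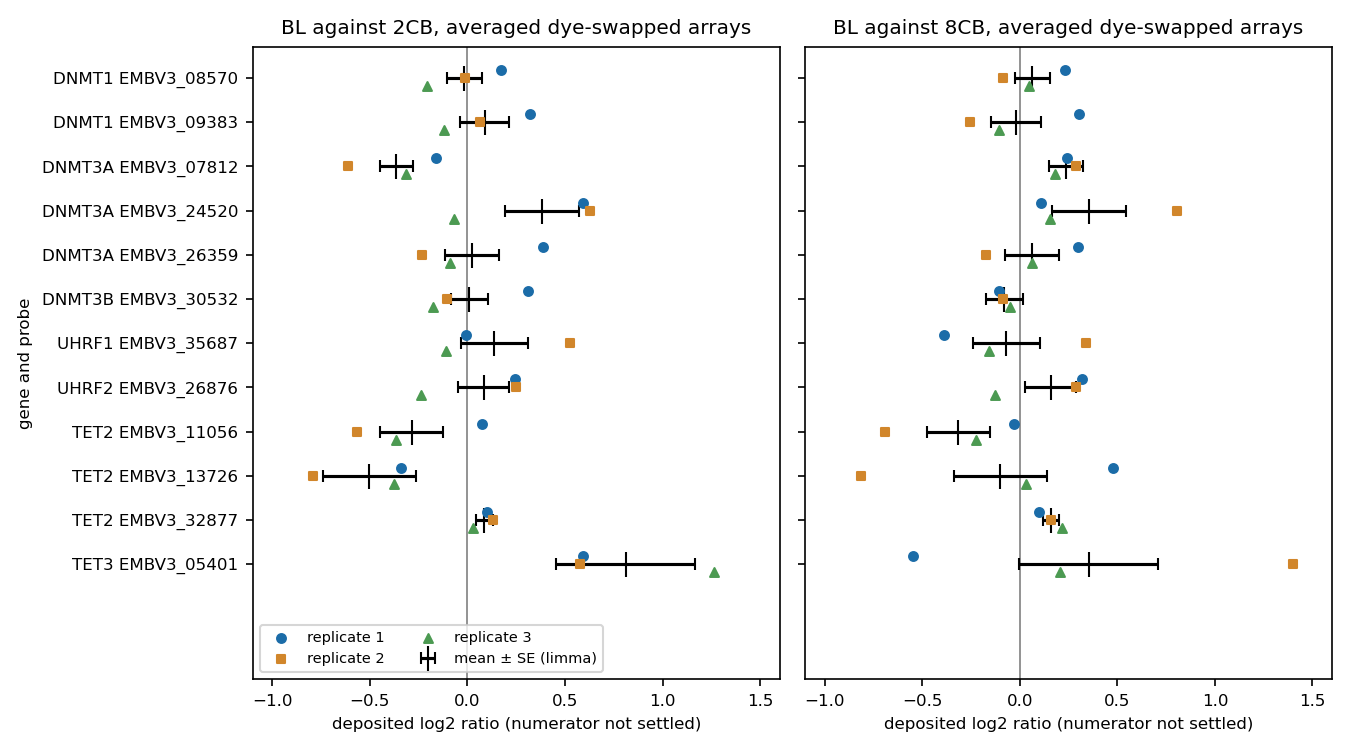
Deposited log2 ratios of the 12 probes (rows, gene and probe name) in BL against 2CB (left) and BL against 8CB (right), with 1 symbol per replicate for the mean of its dye-swapped arrays and a bar for the limma mean ± SE (n = 3). DNMT3A EMBV3_07812 sits at -0.61 to -0.16 against 2CB and at 0.18 to 0.29 against 8CB, while TET3 spans -0.54 to 1.40 against 8CB.

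None of the 12 probes differed at an adjusted p under 0.05 in either comparison as deposited, by limma with Benjamini-Hochberg adjustment over all probes, and neither did any other probe of the array (0% called in BL against 2CB and 0% in BL against 8CB). With 0.10 as the threshold for the adjusted p it was again 0 of 12 in both, where the shares of all probes were 0.767% and 0.21%. At an unadjusted p under 0.05, 1 of the 12 probes was called in BL against 2CB, where the share of all probes was 16.6% (9.11% on the negative side, which held this probe, and 7.44% on the positive side). In BL against 8CB it was 2 of 12, both positive, where the share of all probes was 9.78% (4.67% positive and 5.11% negative). In the contrast of the 2 arrested classes it was 1 of 12, on the negative side, where the share was 4.53% (2.44% negative and 2.09% positive). The same DNMT3A probe was in all 3 of these counts. The same side in 3 of 3 averaged ratios was kept by 4 of 12 against 2CB and by 5 of 12 against 8CB, where the shares were 43.1% and 27.7%, and no member kept one side on all 12 arrays, where 2.14% of probes did. The replicate numbers were also taken to pair the samples across the comparisons, which the labels do not state. With the number as a fixed block the counts were 4 of 12 against 2CB and 5 of 12 against 8CB, where the shares of all probes were 24% and 15.7%. For the contrast it was 1 of 12, where the share was 9.82%. The block brought 1395 of all probes (3.19%), and none of the 12, to an adjusted p under 0.05 against 2CB. Leaving out replicate 1, 2 or 3 gave counts of 2, 3 and 3 against 2CB, of 2, 2 and 1 against 8CB, and of 1, 3 and 1 for the contrast. Under the turned signs, 4 of 12 against 2CB and 2 of 12 against 8CB had an unadjusted p under 0.05, where the shares were 29.2% and 25.1%, and for the contrast it was 0 of 12, where the share was 0.966%. UHRF2 alone of the 12 had an adjusted p under 0.05 in that reading, in both comparisons, where the shares of all probes were 8.13% for BL against 2CB and 4.63% for BL against 8CB. With 0.10 as the threshold for the turned adjusted p it was 3 of 12 against 2CB and 1 of 12 against 8CB. The shares of all probes there were 17.6% and 12.1%.

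DNMT1, the maintenance methyltransferase, was measured by 2 probes, and neither kept one side over the averaged ratios of the replicates in either comparison. Probe EMBV3_08570 had averaged ratios of 0.17, -0.011 and -0.21 in replicates 1 to 3 of BL against 2CB, and of 0.23, -0.085 and 0.048 in BL against 8CB. Probe EMBV3_09383 had 0.32, 0.064 and -0.12 in BL against 2CB, and 0.30, -0.26 and -0.11 in BL against 8CB. Replicate 1 was thus the highest in both probes and both comparisons. By orientation, EMBV3_09383 against 2CB was positive on all 3 arrays with BL in Cy5 (mean 0.27) and averaged -0.095 with 2CB in Cy5. Against 8CB it averaged 0.081 with BL in Cy5 and -0.12 with 8CB in Cy5. EMBV3_08570 averaged -0.076 with BL in Cy5 and 0.046 with 2CB in Cy5. Against 8CB it averaged -0.044 with BL in Cy5 and 0.17 with 8CB in Cy5. The means of EMBV3_08570 were -0.015 ± 0.089 against 2CB (SE, n = 3) and 0.065 ± 0.089 against 8CB, with 95% intervals of -0.23 to 0.20 and -0.15 to 0.28. Those of EMBV3_09383 were 0.087 ± 0.13 and -0.020 ± 0.13. In the turned reading the 2 probes lay on opposite sides, EMBV3_08570 at -0.061 ± 0.10 against 2CB and EMBV3_09383 at 0.18 ± 0.062 (unadjusted p = 0.0224, adjusted p = 0.113). Over the 12 arrays the 2 probes correlated at r = 0.48, a description over ratios that share arrays and pools.

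DNMT3A, a methyltransferase that sets new marks, had one probe that kept its side on every array of each comparison, but took opposite sides in the 2 comparisons. On the arrays of BL against 2CB, EMBV3_07812 read -0.11, -0.67 and -0.35 with BL in Cy5, and -0.21, -0.56 and -0.28 with 2CB in Cy5. On the arrays of BL against 8CB it read 0.23, 0.29 and 0.085 with BL in Cy5, and 0.26, 0.28 and 0.27 with 8CB in Cy5. All 6 ratios against 2CB were negative and all 6 against 8CB positive, so the comparisons did not overlap on any array. One side on 6 of 6 arrays was kept by 12.7% of all probes against 2CB and by 5.85% against 8CB, and opposite sides between the comparisons on all 12 arrays by 26 of 43793 probes (0.0594%). The averaged ratios gave -0.36 ± 0.086 against 2CB (95% interval -0.57 to -0.15, unadjusted p = 0.0056, adjusted p = 0.147) and 0.24 ± 0.086 against 8CB (0.026 to 0.45, unadjusted p = 0.0332, adjusted p = 0.444). These correspond to differences of 1.29-fold and 1.18-fold in size. Against 8CB, leaving out replicate 1 gave an unadjusted p of 0.065 and leaving out replicate 3 one of 0.114. With a separate limma fit per comparison the unadjusted p was 0.0244 against 2CB and 0.00795 against 8CB (adjusted p = 0.209 and 0.386). In a fit of all 12 arrays that took the replicate number as a random block, the adjusted p against 2CB was 0.0227, where 4.4% of all probes had one under 0.05 (1.14% against 8CB, with none of the 12 members). With the number as a fixed block on the averaged ratios it was 0.0968, so that call was lost.

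The contrast of the arrested classes (against 2CB minus against 8CB) was -0.60 ± 0.12 for EMBV3_07812 (95% interval -0.90 to -0.30, unadjusted p = 0.00268, adjusted p = 0.939), and the size of this value exceeded that of 99.2% of probes. It assumes that both comparisons were turned alike by the authors, and it did not pass the adjustment over all probes. In the turned reading the same probe was close to 0, at -0.015 ± 0.041 against 2CB, -0.035 ± 0.041 against 8CB and 0.020 ± 0.058 for their difference.

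The other DNMT3A probes did not repeat this pattern. EMBV3_24520 read 0.48, 0.24 and -0.39 with BL in Cy5 and 0.70, 1.01 and 0.24 with 2CB in Cy5, and it read 0.12, 0.80 and -0.14 with BL in Cy5 and 0.095, 0.81 and 0.45 with 8CB in Cy5. Its means were positive in both comparisons, 0.38 ± 0.19 and 0.36 ± 0.19 (unadjusted p = 0.0912 and 0.11, or 0.0297 and 0.0368 with the replicate number as a block), and 1 array of each comparison was negative. With a replicate left out they ran from 0.26 to 0.61 against 2CB (unadjusted p = 0.0368 without replicate 3, 0.201 and 0.321 otherwise) and from 0.13 without replicate 2 (unadjusted p = 0.485) to 0.48 against 8CB. In the turned reading EMBV3_24520 took the negative side, at -0.27 ± 0.077 against 2CB (limma, unadjusted p = 0.0103, adjusted p = 0.0768). Against 8CB its turned mean was -0.097 ± 0.077 (limma, unadjusted p = 0.249). EMBV3_26359 had averaged ratios of 0.39, -0.23 and -0.088 against 2CB and of 0.30, -0.17 and 0.065 against 8CB, means of 0.023 ± 0.14 and 0.064 ± 0.14. Its orientation means were -0.027 with BL in Cy5 and 0.073 with 2CB in Cy5. Against 8CB they were 0.036 with BL in Cy5 and 0.091 with 8CB in Cy5. EMBV3_07812 correlated over the 12 arrays with EMBV3_24520 at r = 0.032 and with EMBV3_26359 at r = 0.31, and the last pair at r = -0.13. The mean of the 3 probes was 0.014 ± 0.089 against 2CB and 0.22 ± 0.089 against 8CB (unadjusted p = 0.0485), so against 2CB the gene mean lay near 0 where EMBV3_07812 was negative. Where each probe lies in the transcripts of DNMT3A is not given in the sources used here, so isoforms could not be assigned.

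DNMT3B, the other enzyme that sets new marks, had 1 probe, EMBV3_30532. It read 0.61, -0.059 and 0.058 with BL in Cy5 and 0.013, -0.15 and -0.41 with 2CB in Cy5. Against 8CB it read 0.31, 0.15 and -0.17 with BL in Cy5 and -0.52, -0.32 and 0.069 with 8CB in Cy5. Its averaged ratios were 0.31, -0.11 and -0.18 against 2CB, and -0.10, -0.084 and -0.051 against 8CB. The small negative averages against 8CB thus came from orientations on opposite sides in each replicate. The means were 0.010 ± 0.095 and -0.080 ± 0.095 (unadjusted p = 0.918 and 0.433). In the turned reading they were 0.19 ± 0.10 and 0.17 ± 0.10 (unadjusted p = 0.0916 and 0.12), higher in BL if the values are Cy5 over Cy3, without passing a threshold.

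UHRF1, the protein that binds hemimethylated DNA and brings DNMT1 to it, had 1 probe, EMBV3_35687. It read -0.12, 0.30 and -0.52 with BL in Cy5 and 0.11, 0.76 and 0.30 with 2CB in Cy5. Against 8CB it read -0.56, 0.36 and -0.33 with BL in Cy5 and -0.21, 0.32 and 0.023 with 8CB in Cy5. Replicate 2 was positive on all 4 of its arrays, and the replicates of BL in Cy5 took both sides. The means were 0.14 ± 0.17 against 2CB and -0.068 ± 0.17 against 8CB (unadjusted p = 0.455 and 0.708). Without replicate 2 they were -0.057 and -0.27 (unadjusted p = 0.511 and 0.0253). UHRF1 turned by the dyes was at -0.25 ± 0.066 against 2CB (unadjusted p = 0.00682, adjusted p = 0.0633) and -0.11 ± 0.066 against 8CB (unadjusted p = 0.137, adjusted p = 0.338).

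**Figure D2:**
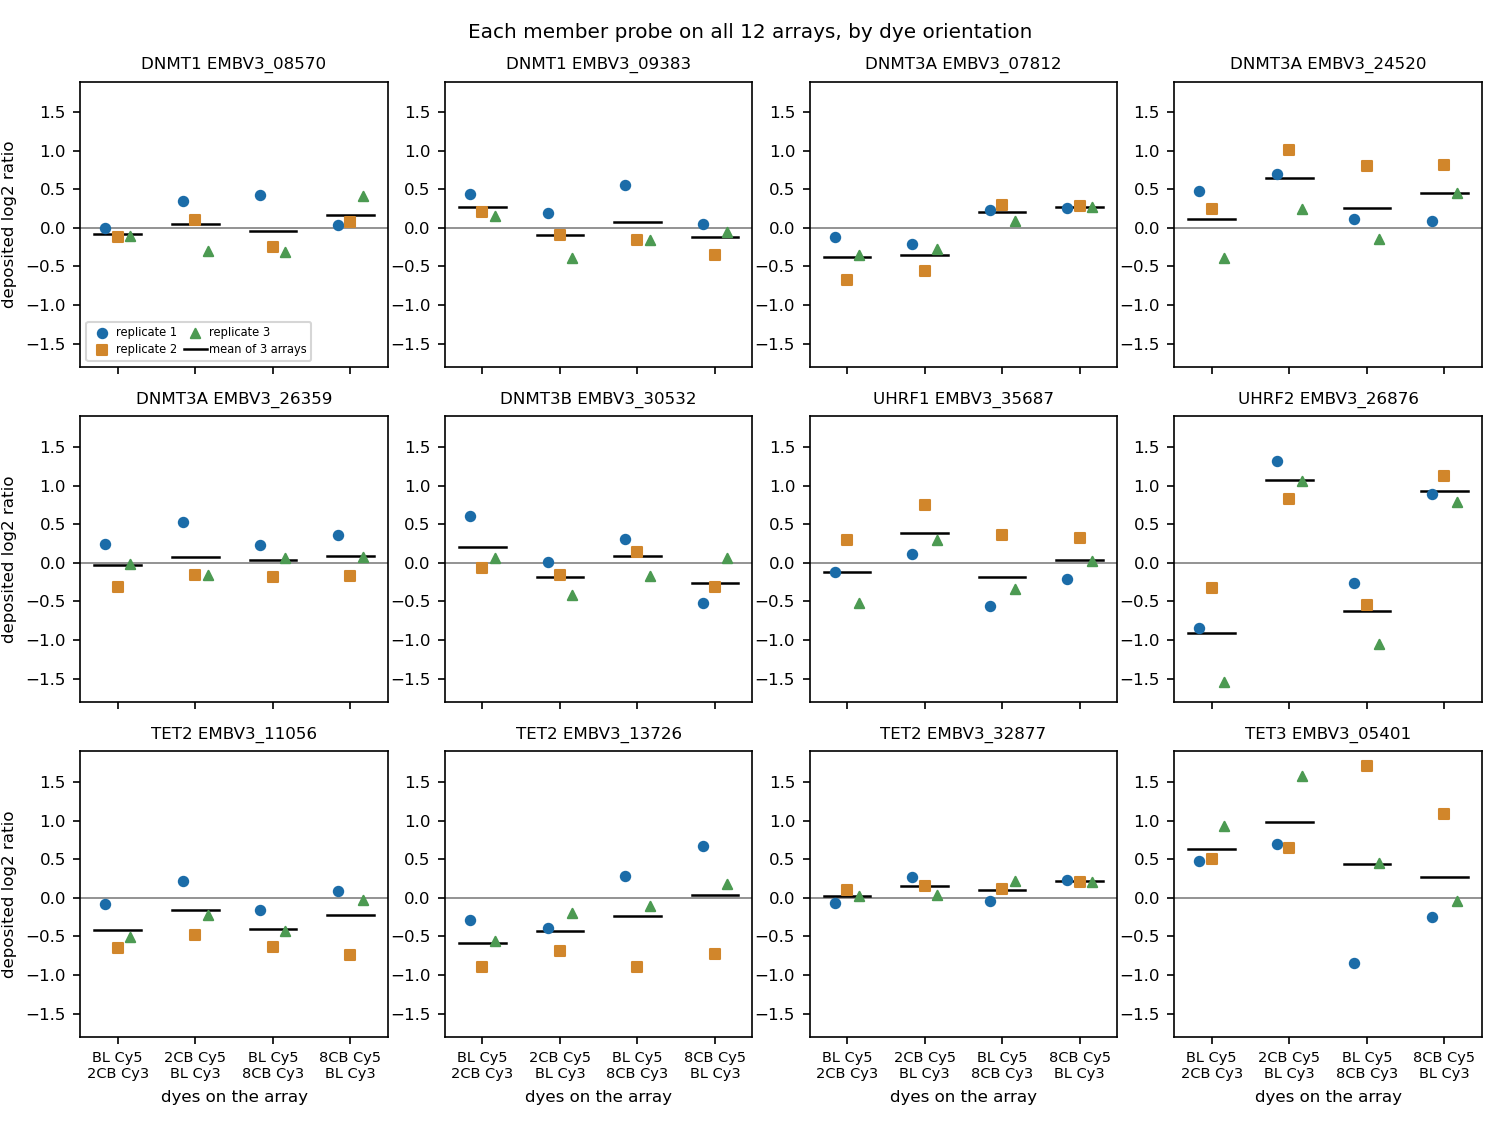
Deposited log2 ratio (vertical axis) of each of the 12 probes (panels) by the dyes on the array (horizontal axis), with 1 symbol per array by replicate number and a line for the mean of 3 arrays. UHRF2 is negative on all 6 arrays with BL in Cy5 and positive on all 6 with the arrested class in Cy5, whereas DNMT3A EMBV3_07812 keeps one side within each comparison.

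UHRF2, a paralogue of UHRF1 known as a reader of 5-hydroxymethylcytosine, was the member whose ratio followed the dye label. On the arrays with BL in Cy5, EMBV3_26876 read -0.84, -0.33 and -1.55 against 2CB, and with 2CB in Cy5 it read 1.33, 0.82 and 1.07. On the arrays with BL in Cy5 against 8CB it read -0.26, -0.55 and -1.05, and with 8CB in Cy5 it read 0.90, 1.12 and 0.79. The orientations did not overlap, with means of -0.91 ± 0.61 and 1.07 ± 0.25 (SD, n = 3 each) in BL against 2CB and of -0.62 ± 0.40 and 0.94 ± 0.17 in BL against 8CB. Opposite sides by dye orientation on all 12 arrays were seen in 3144 of 43793 probes (7.18%), and in 1363 (3.11%) in the direction of UHRF2.

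The 2 readings therefore give different accounts of UHRF2. Averaged as deposited, the orientations cancelled to 0.083 ± 0.13 against 2CB and 0.16 ± 0.13 against 8CB (unadjusted p = 0.548 and 0.266, the last at 0.0119 with the replicate number as a block, and 0.0116 and 0.00564 without replicate 3, where the means were 0.24 and 0.30). Turned by the labelled dyes, the means were -0.99 ± 0.13 against 2CB (1.99-fold in size, adjusted p = 0.012) and -0.78 ± 0.13 against 8CB (1.71-fold, adjusted p = 0.0289), which would be lower in BL on all 6 arrays of each comparison if the values are Cy5 over Cy3. With the replicate number as a block across the comparisons the adjusted p of the turned means was 0.0717 and 0.138. Leaving out replicate 1, 2 or 3 kept them between -1.20 and -0.83 against 2CB and between -0.88 and -0.71 against 8CB, but the adjusted p passed 0.05 only without replicate 3 (0.034 and 0.0358), and was 0.0952 and 0.132 without replicate 1 and 0.118 and 0.311 without replicate 2. The turned mean was larger in size than that of 99.9% of probes against 2CB and of 99.8% against 8CB. A difference between the classes and an effect of the dye on this probe cannot be told apart, since under the first reading the same numbers are a dye effect. The turned values of the 2 arrested classes differed by -0.21 ± 0.19 (adjusted p = 1).

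**Figure D3:**
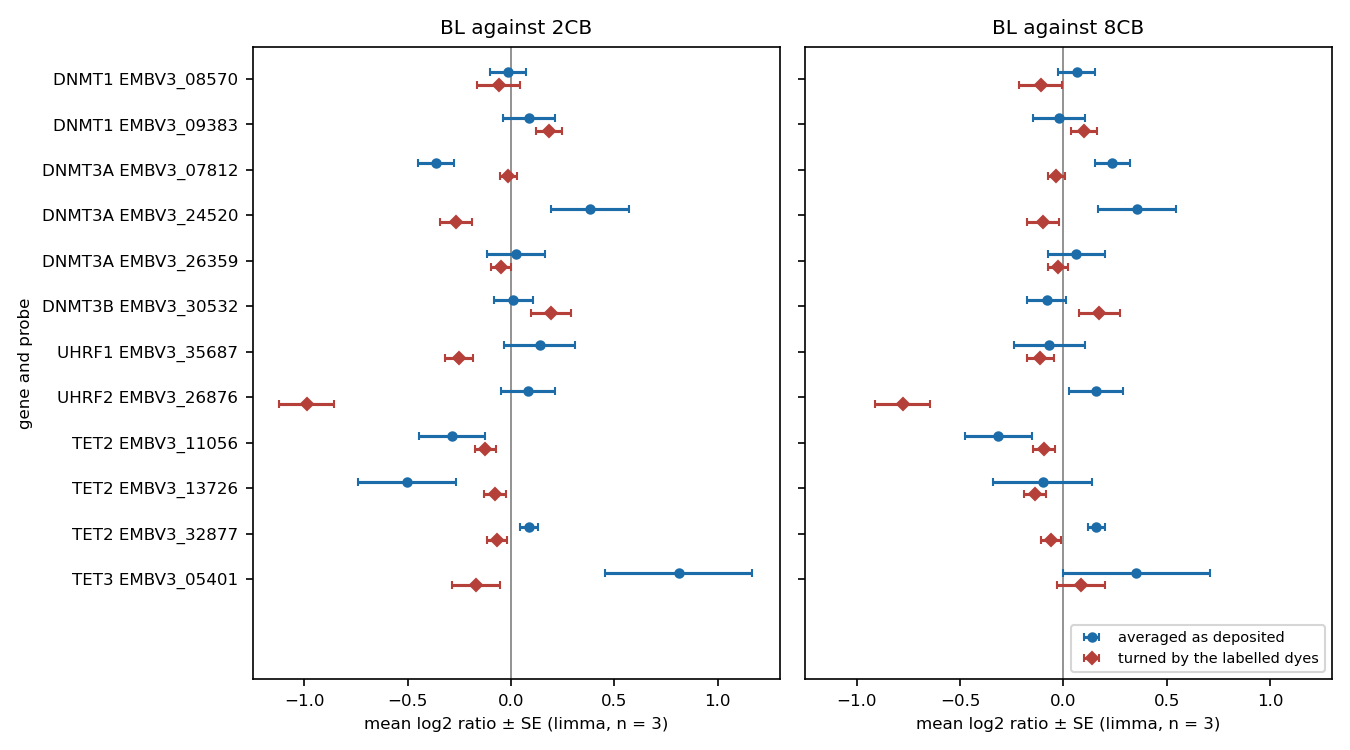
Mean log2 ratio ± SE (horizontal axis, limma, n = 3 averaged ratios) of the 12 probes (rows) in BL against 2CB (left) and BL against 8CB (right), with circles for values averaged as deposited and diamonds for signs turned by the labelled dyes. UHRF2 lies at 0.083 and 0.16 as deposited and at -0.99 and -0.78 turned, while DNMT3A EMBV3_07812 lies at -0.36 and 0.24 as deposited and at -0.015 and -0.035 turned.

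TET2, which oxidises 5-methylcytosine, was measured by 3 probes that fell into a pair and a single one. EMBV3_13726 read -0.29, -0.90 and -0.55 with BL in Cy5 and -0.39, -0.68 and -0.20 with 2CB in Cy5, negative on all 6 arrays, and its mean was -0.50 ± 0.24 (unadjusted p = 0.0801, adjusted p = 0.353, or 0.014 and 0.109 with the replicate number as a block). With replicate 1, 2 or 3 left out the unadjusted p was 0.0728, 0.0397 and 0.197. In a separate limma fit of BL against 2CB its mean was -0.50 ± 0.11 (unadjusted p = 0.011, adjusted p = 0.154). Against 8CB it read 0.29, -0.89 and -0.11 with BL in Cy5 and 0.67, -0.73 and 0.17 with 8CB in Cy5. There the replicates took both sides, with replicate 1 positive and replicate 2 negative in both orientations, and the mean was -0.10 ± 0.24. EMBV3_11056 had averaged ratios of 0.073, -0.57 and -0.37 against 2CB and of -0.031, -0.69 and -0.22 against 8CB, with means of -0.29 ± 0.16 and -0.31 ± 0.16 (unadjusted p = 0.128 and 0.0998, or 0.00583 and 0.00406 with the block, with an adjusted p of 0.0749 and 0.12). Without replicate 2 they were -0.15 and -0.13 (unadjusted p = 0.314 and 0.372), and without replicate 1 they were -0.47 and -0.46 (0.0266 and 0.0282). The orientation means of EMBV3_11056 were -0.41 with BL in Cy5 and -0.16 with 2CB in Cy5. Against 8CB they were -0.41 with BL in Cy5 and -0.22 with 8CB in Cy5. EMBV3_13726 and EMBV3_11056 correlated at r = 0.73 over the 12 arrays, and replicate 2 was the lowest for both in both comparisons.

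The remaining TET2 probe, EMBV3_32877, had averaged ratios of 0.10, 0.13 and 0.031 against 2CB and of 0.10, 0.16 and 0.22 against 8CB, positive in all 6 averaged ratios. Single arrays were not all positive, as replicate 1 with BL in Cy5 read -0.065 against 2CB and -0.041 against 8CB. Orientation means against 2CB were 0.020 with BL in Cy5 and 0.15 with 2CB in Cy5. Against 8CB they were 0.10 with BL in Cy5 and 0.22 with 8CB in Cy5. The mean of EMBV3_32877 against 8CB was 0.16 ± 0.042 (95% interval 0.056 to 0.26, unadjusted p = 0.00939, adjusted p = 0.287), a 1.12-fold difference, and against 2CB 0.087 ± 0.042 (unadjusted p = 0.0866). Against 8CB, leaving out replicate 2 gave an unadjusted p of 0.0536 and leaving out replicate 3 one of 0.0809. Its SD over the 12 arrays was 0.11, below the median of all probes at 0.19, and it correlated with the other TET2 probes at r = 0.12 and 0.078. The mean of the 3 probes was -0.23 ± 0.13 against 2CB and -0.085 ± 0.13 against 8CB, with the probes on opposite sides of it. In the turned reading all 3 were negative in both comparisons, between -0.14 and -0.060, with the smallest adjusted p at 0.163 for EMBV3_13726 against 8CB.

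TET3 had the mean of largest size among the 12 probes against 2CB, and the widest replicates against 8CB. Its probe EMBV3_05401 read 0.48, 0.51 and 0.94 with BL in Cy5 and 0.71, 0.65 and 1.58 with 2CB in Cy5, positive on all 6 arrays. Against 8CB it read -0.85, 1.71 and 0.45 with BL in Cy5 and -0.24, 1.09 and -0.045 with 8CB in Cy5. Replicate 1 was negative and replicate 2 positive in both orientations, while replicate 3 was positive with BL in Cy5 and negative with 8CB in Cy5. The spread between replicate numbers was wider than that between the orientation means, at 0.44 and 0.27. The mean against 2CB was 0.81 ± 0.36 (95% interval -0.067 to 1.69, 1.75-fold in size, unadjusted p = 0.0644, adjusted p = 0.33), a size above that of 99.5% of probes. Against 8CB it was 0.35 ± 0.36 (-0.52 to 1.23, unadjusted p = 0.36, adjusted p = 0.891), and without replicate 2 it was -0.17, while without replicate 1 it was 0.80. Against 2CB it was 0.92, 0.93 and 0.58 without replicate 1, 2 and 3, with an unadjusted p of 0.0583, 0.0205 and 0.321. The SE came from one spread shared by both comparisons, although the SD of the averaged ratios was 0.39 against 2CB and 0.98 against 8CB. In a separate limma fit the mean against 2CB was 0.81 ± 0.17 (unadjusted p = 0.00864, adjusted p = 0.142). The difference of the comparisons was 0.46 ± 0.50 (adjusted p = 0.942), and without replicate 1, 2 and 3 it was 0.12, 1.10 and 0.16, with an unadjusted p of 0.824, 0.0361 and 0.84. TET3 turned by the dyes was at -0.17 ± 0.12 and 0.084 ± 0.12 (adjusted p = 0.366 and 0.688).

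Over the 12 arrays the members varied by different amounts. The SD was 0.99 for UHRF2 and 0.73 for TET3, above 99.6% and 98.4% of all probes, then 0.49 for TET2 EMBV3_13726 and 0.42 for DNMT3A EMBV3_24520, and 0.40 or less for the other 8 probes. The replicate numbers 1 and 2 of BL against 8CB, which carry the wide TET3 values, correlated at r = -0.21 over all probes, against 0.32 and 0.38 for the other replicate pairs of that comparison and 0.37 to 0.53 in BL against 2CB. Their part in the TET3 result was not tested. On one side of 0 in both replicates 1 and 2 of BL against 8CB stood 6 of the 12 member probes, where 43.8% of all probes did.

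Pairs of different members also moved together over the 12 arrays, as a description of ratios that share arrays and pools. DNMT3A EMBV3_26359 and TET2 EMBV3_11056 correlated at r = 0.88, and DNMT3A EMBV3_24520 and UHRF1 at r = 0.82, while TET3 and TET2 EMBV3_13726 ran opposite at r = -0.72. Among 15209 other named genes, the mean profiles most like TET3 were those of CDC42EP1 (r = 0.996), SP9 (r = 0.99) and TAF15 (r = 0.99). For TET3, 87 genes (0.572%) exceeded r = 0.9 and 11 lay under -0.9. For UHRF1 the most alike were NPEPL1 (r = 0.97), SUPT16H and SUPT6H (r = 0.96 each), with 19 genes (0.125%) over 0.9 and 18 under -0.9. For the mean of the DNMT1 probes they were HAS3, POU2F1 and LOC530354 (r = 0.92 each), with 7 (0.046%) over 0.9 and 11 under -0.9.

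**Figure D4:**
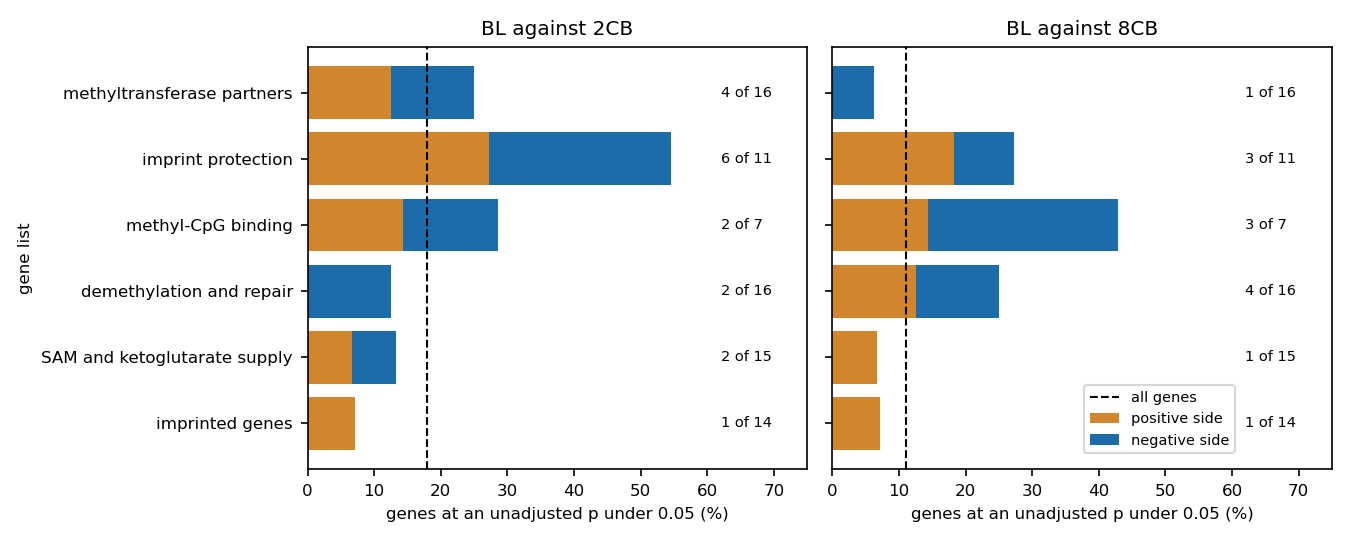
Percentage of the measured genes of each list (rows) at an unadjusted p under 0.05 in BL against 2CB (left) and BL against 8CB (right), with bar sections for genes on the positive and the negative side, the counts beside them and a dashed line at the share of all named genes (18% and 11%). Imprint protection stands at 6 of 11 against 2CB, methyl-CpG binding at 3 of 7 against 8CB, and imprinted genes at 1 of 14 in both.

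Genes that work with the members were taken in 6 lists, of which 79 of 93 listed genes were measured. No gene of these lists had an adjusted p under 0.05 over all genes in either comparison as deposited. In BL against 2CB 17 of 79 genes (21.5%) had an unadjusted p under 0.05, 8 of them positive and 9 negative, with a list median of 0.039. In BL against 8CB it was 13 of 79 (16.5%), 7 positive and 6 negative, with a median of -1.7e-05. Over all named genes the shares were 18% and 11%. With the replicate number as a block, 26 and 21 of the 79 had an unadjusted p under 0.05, and without replicate 3 the counts were 11 and 8.

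Partners of the methyltransferases had 4 of 16 genes at an unadjusted p under 0.05 against 2CB and 1 of 16 against 8CB. Against 2CB they were SETD2, a histone methyltransferase of transcribed genes, at 0.28 ± 0.073, and PCNA, the replication clamp that DNMT1 binds, at -0.38 ± 0.11. CDCA7, which recruits the remodeller HELLS, lay at -0.19 ± 0.063 and the histone methyltransferase EHMT2 at 0.18 ± 0.070. Against 8CB it was DMAP1, a DNMT1-associated protein, at -0.30 ± 0.063.

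Among genes that protect imprints and the maternal-effect genes listed with them, 6 of 11 reached that p against 2CB and 3 of 11 against 8CB, with medians of 0.24 and 0.17. The named ones against 2CB took both sides. CTCF, the insulator protein, was at -0.45 ± 0.11 and ZNF445, a zinc-finger protein that maintains imprints, at -0.28 ± 0.091, while ARID4A, a retinoblastoma-binding protein, was at 0.29 ± 0.072 and NLRP5, a component of the subcortical maternal complex, at 0.59 ± 0.19. Against 8CB, CTCF was at -0.42 ± 0.11, ARID4A at 0.46 ± 0.072 and PADI6, another component of that complex, at 0.47 ± 0.18. PADI6 also reached that p against 2CB, at 0.54 ± 0.18 (limma, unadjusted p = 0.0225), and was named there after its value was seen. CTCF and ARID4A had the same side in all 3 averaged ratios of both comparisons, which share the BL class, and so did MBD4 and ZBTB38 of the methyl-CpG binding list. In a single comparison, one side in 3 of 3 averaged ratios was kept by 43.1% of all probes against 2CB and by 27.7% against 8CB. The share of all genes that kept one side in both comparisons was not counted.

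Of 7 methyl-CpG binding proteins measured, 2 reached that p against 2CB and 3 against 8CB. MBD4, a glycosylase that removes mismatched thymine at CpG sites, was at 0.39 ± 0.076 against 2CB and 0.56 ± 0.076 against 8CB, with an adjusted p of 0.113 and 0.107. ZBTB38, a zinc-finger reader of methylated DNA, was at -0.36 ± 0.073 and -0.23 ± 0.073. MBD3, a subunit of the NuRD complex, was at -0.14 ± 0.050 against 8CB.

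Among 16 genes of demethylation and base excision repair, 2 reached that p against 2CB and 4 against 8CB. GADD45B, a stress-induced protein linked to active demethylation, was at -0.42 ± 0.10 and the endonuclease APEX1 at -0.26 ± 0.10 against 2CB. Against 8CB, PARP1 was at 0.56 ± 0.15 and the DNA ligase LIG3 at 0.16 ± 0.045, with GADD45G at -0.64 ± 0.18 and GADD45A at -0.16 ± 0.054. Of 15 genes listed for supply of the methyl donor or the TET co-substrate, 2 reached that p against 2CB and 1 against 8CB. Against 2CB they were the methionine synthase MTR at 0.15 ± 0.050 and the betaine-using enzyme BHMT at -0.51 ± 0.17. Against 8CB it was AHCYL1 at 0.39 ± 0.15, whose own part in that supply was not tested. Of 14 imprinted genes, 1 reached that p in each comparison, IGF2R at 0.43 ± 0.12 against 2CB and MEST at 0.31 ± 0.086 against 8CB.

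Turned by the dyes, 4 genes of these lists had an adjusted p under 0.05 against 2CB (EHMT2, TLE6, ZBTB33 and XRCC1) and 2 against 8CB (TLE6 and SHMT1), where the shares of all genes were 5.96% and 2.94%. TLE6, ZBTB33, XRCC1 and SHMT1 were named after their values were seen.

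Markers of other cells that a pool could hold were counted in the same way. As deposited, 18% of all named genes had an unadjusted p under 0.05 against 2CB (8.54% positive and 9.48% negative). Against 8CB the share was 11% (5.61% positive and 5.41% negative). Of 19 cumulus and granulosa genes 1 had an unadjusted p under 0.05 in each comparison, INHBA at 0.30 ± 0.079 against 2CB and CYP11A1 at -0.16 ± 0.054 against 8CB, and the list ran from -0.15 to 0.30 against 2CB and from -0.16 to 0.14 against 8CB. Of 16 sperm and testis genes 2 had one against 2CB, SPATA19 at 0.12 ± 0.041 and ZPBP at -0.40 ± 0.16, and 0 against 8CB, where DDX4 came nearest at 0.14 ± 0.068. Of 16 blood and immune genes 0 had one in either comparison by limma, with ratios from -0.086 to 0.11 and from -0.16 to 0.19, and CD8A (0.068 ± 0.043) and CD3E (-0.16 ± 0.082) were nearest to it. Oocyte genes had 6 of 9 at an unadjusted p under 0.05 against 2CB, 5 positive and 1 negative, with a median of 0.51. The negative one was DPPA3 at -0.11 ± 0.038, named after its value was seen. Against 8CB there was 1 of 9, OOSP2 at -0.19 ± 0.074, with a median of 0.23. NLRP5 and DPPA3 are in this list and in that of imprint protection. BMP15, an oocyte growth factor, was at 0.98 ± 0.25 and the zona gene ZP3 at 0.75 ± 0.21 against 2CB, on the same side as TET3 in the values as deposited. The oocyte linker histone H1-8 was at 0.69 ± 0.17 and the kinase MOS at 0.51 ± 0.13. In the turned reading TET3 was on the other side from these genes against 2CB. There BMP15 was at 0.21, ZP3 at 0.17, H1-8 at 0.14 and MOS at 0.54, while TET3 was at -0.17 and DPPA3 at -0.0026. The part of stored oocyte RNA as a whole in the TET3 ratio was not tested. Turned by the dyes, 4 of 19 cumulus and granulosa genes had an unadjusted p under 0.05 against 2CB and 0 against 8CB. Sperm and testis genes had 4 and 3 of 16, blood and immune genes 3 and 3 of 16, and oocyte genes 2 and 2 of 9. Over all genes the shares in the turned reading were 28.3% and 24%. An adjusted p under 0.05 was reached by 1 blood and immune gene against 2CB, where the share was 5.96%, and by no other marker.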

How the data were processed

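The authors deposited 1 log2 ratio per probe and array for 12 two-colour Agilent EmbryoGENE arrays, made with limma per the submitters' processing notes. The logarithm's base is nowhere stated, and log2 was assumed. How background was corrected and arrays were normalized or filtered is not given in the sources used here. The table had 43795 rows and 0 columns were unused. Left out were 1 row with a gap and 1 that was no numbered probe. The annotation named 1 gene for 21790 probes, several for 0 and none for 22003. Against RefSeq names 20025 symbols were current, 1524 were updated and 241 kept. The build behind the array is unnamed, so no positions are printed. No probe, protein or promoter sequence was used here.

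Swapped arrays with one number were taken as the same pools and averaged as 1 replicate. The 6 averaged ratios were fitted with lmFit and eBayes (limma 3.58.1, R 4.3.3), with a coefficient per comparison and one shared spread, two-sided p-values, Benjamini-Hochberg adjustment over 43793 probes and a threshold of 0.05. Turned means used the sign of the labelled dyes in the same fit. Gene lists used the mean of a gene's probes. The fit was tested on simulated data. Deviations of averaged ratios correlated between comparisons for numbers 1, 2 and 3 at r = 0.30, 0.39 and 0.35. The numbers were therefore taken to pair the samples across comparisons in the block fits. The labels do not say which BL pools they share, and the source of the correlation was not tested.

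Members and lists were chosen with earlier results of these data known. Named were all member probes, up to 4 list genes per comparison at an unadjusted p under 0.05 by smallest p (or else the 1 smallest), and the 3 genes most like DNMT1, UHRF1 and TET3. Alternatives were the turned sign, a replicate block (random over 12 arrays with a dye coefficient, or fixed across comparisons), either orientation alone, separate fits, robust moderation, centring on medians, scaling, quantile normalization, leaving out probes whose ratios all lay under 0.5, 1 value per gene and each replicate left out. Matplotlib 3.10.9 in Python 3.11.15 drew the figures.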

Additional observations from a re-analysis of the deposited data

Results flagged for a closer look

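UHRF2 (EMBV3_26876) took opposite sides in the 2 dye orientations. Arrays with BL in Cy5 minus arrays with the arrested class in Cy5 gave -1.98 in BL against 2CB and -1.55 in BL against 8CB, on 6 of 6 arrays each. Divided by the number of orientations, these are the means in the turned reading, which had an adjusted p of 0.012 and 0.0289 in limma, and of 0.0717 and 0.138 with the replicate number as a block.

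DNMT3A (EMBV3_07812) was negative on every array against 2CB and positive on every array against 8CB. The value against 2CB minus that against 8CB was -0.60, at an unadjusted p of 0.00268 and an adjusted p of 0.939 in limma. The other DNMT3A probes gave 0.025 ± 0.27 and -0.040 ± 0.20 for the same difference.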

How the results depend on the processing

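As deposited, limma called 0 of 43793 probes at an adjusted p under 0.05 in each comparison, with 7249, 4285 and 1985 at an unadjusted p under 0.05 against 2CB, against 8CB and for the contrast of both. The calls against 2CB and 8CB numbered 3562 and 2028 when signs followed the labelled dyes, 1925 and 498 with the replicate number as a random block over 12 arrays, 1395 and 0 with the replicate block across comparisons, and 4220 and 1407 on the arrays with BL in Cy5 alone. On the arrays with the arrested class in Cy5 alone the calls numbered 0 and 0. Of the 12 member probes, 1 against 2CB had an unadjusted p under 0.05, and this became 4 with the sign turned, 4 with the random replicate block, 4 with the replicate block across comparisons, 4 on arrays with BL in Cy5, 5 on arrays with 2CB in Cy5, 3 in separate fits, 2 with quantile normalization, 3 with the filter, 0 with 1 value per gene and 2 to 3 with a replicate left out. Against 8CB the count of 2 became 4 with the random replicate block, 5 with the block across comparisons, 4 on arrays with 8CB in Cy5, 0 with the filter, 1 with 1 value per gene and 1 to 2 with a replicate left out. For the contrast the count of 1 became 0 with the sign turned, 0 with 1 value per gene and 1 to 3 with a replicate left out. In settings added for the lists after the data were seen, list genes at an unadjusted p under 0.05 were 26 and 21 with the block, against 17 and 13 without it, and 11 to 14 and 8 to 18 with a replicate left out. As deposited, the block moved no member past an adjusted p of 0.05, except DNMT3A EMBV3_07812 against 2CB with the random block (0.0227, against 0.0968 with the block across comparisons). Settings chosen after the data were seen took the turned UHRF2 means to an adjusted p of 0.0717 and 0.138 with the replicate block across comparisons, and left them at -1.20 to -0.83 and -0.88 to -0.71 with a replicate left out.

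With the sign turned, the side changed against 2CB for DNMT3A EMBV3_24520 (-0.27) and EMBV3_26359 (-0.050), UHRF1 (-0.25), UHRF2 (-0.99), TET2 EMBV3_32877 (-0.066), TET3 (-0.17), EHMT2 (-0.19), ZNF445 (0.038), APEX1 (0.073), MTR (-0.056) and IGF2R (-0.17). It changed against 8CB for DNMT1 EMBV3_08570 (-0.11) and EMBV3_09383 (0.10), DNMT3A EMBV3_07812 (-0.035), EMBV3_24520 (-0.097) and EMBV3_26359 (-0.027), DNMT3B (0.17), UHRF2 (-0.78), TET2 EMBV3_32877 (-0.060), DMAP1 (0.13), PADI6 (-0.12), MBD3 (0.20), PARP1 (-0.024), LIG3 (-0.013), GADD45G (0.22), GADD45A (0.068), AHCYL1 (-0.046) and MEST (-0.14), and for the contrast of DNMT3A EMBV3_07812 (0.020). On arrays with BL in Cy5 alone it changed against 2CB for DNMT3A EMBV3_26359 (-0.027), UHRF1 (-0.11) and UHRF2 (-0.91), and against 8CB for DNMT1 EMBV3_08570 (-0.044) and EMBV3_09383 (0.081), DNMT3B (0.095) and UHRF2 (-0.62). On arrays with the arrested class in Cy5 alone it changed against 2CB for DNMT1 EMBV3_08570 (0.046) and EMBV3_09383 (-0.095) and DNMT3B (-0.18), and against 8CB for UHRF1 (0.044) and TET2 EMBV3_13726 (0.038). With 1 value per gene, at least 1 probe's side differed from its gene's mean for DNMT1 (0.036), DNMT3A (0.014) and TET2 (-0.23) against 2CB and for DNMT1 (0.023) and TET2 (-0.085) against 8CB. The cause of these changes was not tested.

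With a replicate left out, values against 2CB ran over both sides for DNMT1 EMBV3_08570 (-0.11 to 0.080) and EMBV3_09383 (-0.028 to 0.19), DNMT3A EMBV3_26359 (-0.16 to 0.15), DNMT3B (-0.14 to 0.10) and UHRF1 (-0.057 to 0.26). Against 8CB they did so for DNMT1 EMBV3_08570 (-0.019 to 0.14) and EMBV3_09383 (-0.18 to 0.099), DNMT3A EMBV3_26359 (-0.053 to 0.18), UHRF1 (-0.27 to 0.091), TET2 EMBV3_13726 (-0.39 to 0.26) and TET3 (-0.17 to 0.80). Without replicate 2, TET2 EMBV3_11056 was at -0.15 against 2CB and -0.13 against 8CB, and DNMT3A EMBV3_24520 at 0.13 against 8CB. DNMT3A EMBV3_07812 ran at -0.46 to -0.24 against 2CB, 0.21 to 0.27 against 8CB and -0.70 to -0.45 for the contrast. Median centring, scaling and quantile normalization changed no member's side. Robust moderation and separate fits leave the means as they are, so they could not change a side. Without intensities, no probe could be placed above or below background.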

Other observations

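One row of the deposited table lay outside the numbered probes and was in no comparison. It read between 0.16 and 0.34 on the 6 arrays with the arrested class in Cy5 and between -0.38 and -0.077 on the 6 arrays with BL in Cy5, so that it also followed the dye label, as UHRF2 did. The median number of decimals written was 6 on the arrays with BL in Cy5 and 9 on those with the arrested class in Cy5.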
